A study of Gallus gallus with 15 samples.

Results

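Hexokinases and glucose transporters were followed through liver RNA of broiler breeder hens, which lay the eggs that meat chickens hatch from. The genes were a fixed list of 8 names, HKDC1, HK1, HK2, GCKR, SLC2A1, SLC2A2, SLC2A5 and SLC2A9, taken wherever the read-count table had a row of that name. Of these 8 listed genes 7 were among the 24154 gene rows of the table, and all 7 passed the filter on low counts that left 14432 genes to test. GCKR, which encodes a regulator of hepatic glucose phosphorylation in mammals, was not analysed here. Metformin hens were fed 75 mg of metformin per kg of body weight, and control hens 0 mg, in a diet given for 40 weeks from 25 weeks of age, so that livers were those of 65-week-old hens. Each treatment had 45 hens, of which 10 metformin libraries and 5 control libraries were sequenced from 200 ng of total RNA each, with a stranded mRNA kit. The labels name no strain. They also leave it unsaid whether 1 hen stands behind each library, and p-values therefore speak only of the spread among these libraries, which may be technical in part. Liver pieces hold several cell types, and fewer cells of a type and less RNA per cell cannot be told apart in them.

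Glucose enters and leaves the hepatocyte through passive carriers of the SLC2A family, also called GLUT proteins, and a hexokinase then traps it inside the cell as glucose 6-phosphate. In mammals SLC2A2 (GLUT2) is the low-affinity carrier of hepatocytes, SLC2A1 (GLUT1) the carrier of most other cells, SLC2A5 (GLUT5) the fructose carrier, and SLC2A9 (GLUT9) mainly a urate carrier. HK1 and HK2 are high-affinity hexokinases that glucose 6-phosphate inhibits and that bind the outer mitochondrial membrane, while HKDC1 is a later-described member of the family whose gene lies beside HK1. Metformin, taken by mouth against diabetes in people, curbs glucose output by the mammalian liver, and the comparison asked how the hen's liver transcripts differed with and without it.

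The libraries were not of one kind, and this touches every value below. Gene reads numbered 8023809 to 41041301 in metformin libraries and 21435678 to 26494240 in control libraries. The share of reads in no gene divided the libraries into 3 sets, taking a gap of over 5 percentage points as a border. The low set was metformin 2 and 5 (14.6% to 17.5%) and the high set metformin 6 to 10 (51.5% to 55.1%). The middle set was metformin 1, 3 and 4 (37.0% to 43.5%) together with the 5 controls (27.8% to 36.3%). Neither outer set held a control, so metformin and set cannot be told apart there. The 7 genes are also given with the set as a covariate (set-adjusted) and in the middle set alone. Other named genes are given set-adjusted where they were called. Both kinds of value rest on the same contrast, metformin 1, 3 and 4 against the 5 controls. They are therefore not separate checks of each other. The low set had the most gene reads (33574543 to 41041301) and the high set the fewest (8023809 to 11858541). Ribosomal RNA genes took 0.825% to 1.14% of gene reads in the low set, 0.498% to 9.70% in the high set, 9.70% to 28.3% in metformin 1, 3 and 4 and 8.49% to 18.7% in controls. Metformin 10 stood apart in another way: the yolk precursor gene VTG2 had 88.4 CPM there, against 15321 to 76778 CPM in the other metformin libraries and 19033 to 28572 CPM in controls. The tissue label held: of 22 hepatocyte markers 20 were in the table, their summed level was 54233 to 167679 CPM in metformin libraries and 92683 to 117908 CPM in controls, and ALB reached at least 13648 CPM in every library, with RBP4, at 0 to 1.70 CPM, the marker at or near 0.

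Of the 7 measured genes, SLC2A9 was the 1 that rose with metformin at an adjusted p under 0.05, and 0 fell, by edgeR's quasi-likelihood test with Benjamini-Hochberg adjustment over all tested genes. The background was 12.5% of tested genes higher and 5.73% lower, so 1 of 7 was close to the share in the table as a whole. At an unadjusted p under 0.05 there were 2 of 7 higher and 0 lower, beside 23.3% of tested genes higher and 15.9% lower. In the set-adjusted fit 0 of the 7 genes were called, against a background of 0.0277% higher and 0.00693% lower. An unadjusted p under 0.05 was reached by 1678 of all tested genes in that fit and by 0 of the 7. In the middle set alone 0 of 7 were called too, with 0.00% of genes higher and 0.00734% lower. There 1390 genes, and 0 of the 7, were under an unadjusted p of 0.05. Of the 7 genes 0 had every metformin library above every control, as 0.651% of tested genes had, and 0 had every one below, as 1.05% had. DESeq2 and limma voom called 3 of the 7 higher over all libraries, HKDC1 and SLC2A2 beside SLC2A9, and 0 lower. The backgrounds of those counts were 21.0% higher and 8.68% lower with DESeq2, and 23.0% higher and 27.7% lower with limma voom. Against such shares, which amount to between 1 and 2 of 7 genes, the 3 higher calls were not tested and are not read as a result about the members. The plot of levels by library shows that the 7 genes did not move together. The median log2 fold change over them was 0.81, beside 0.03 over all tested genes, and 0.20 set-adjusted, beside -0.03.

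**Figure D1:**
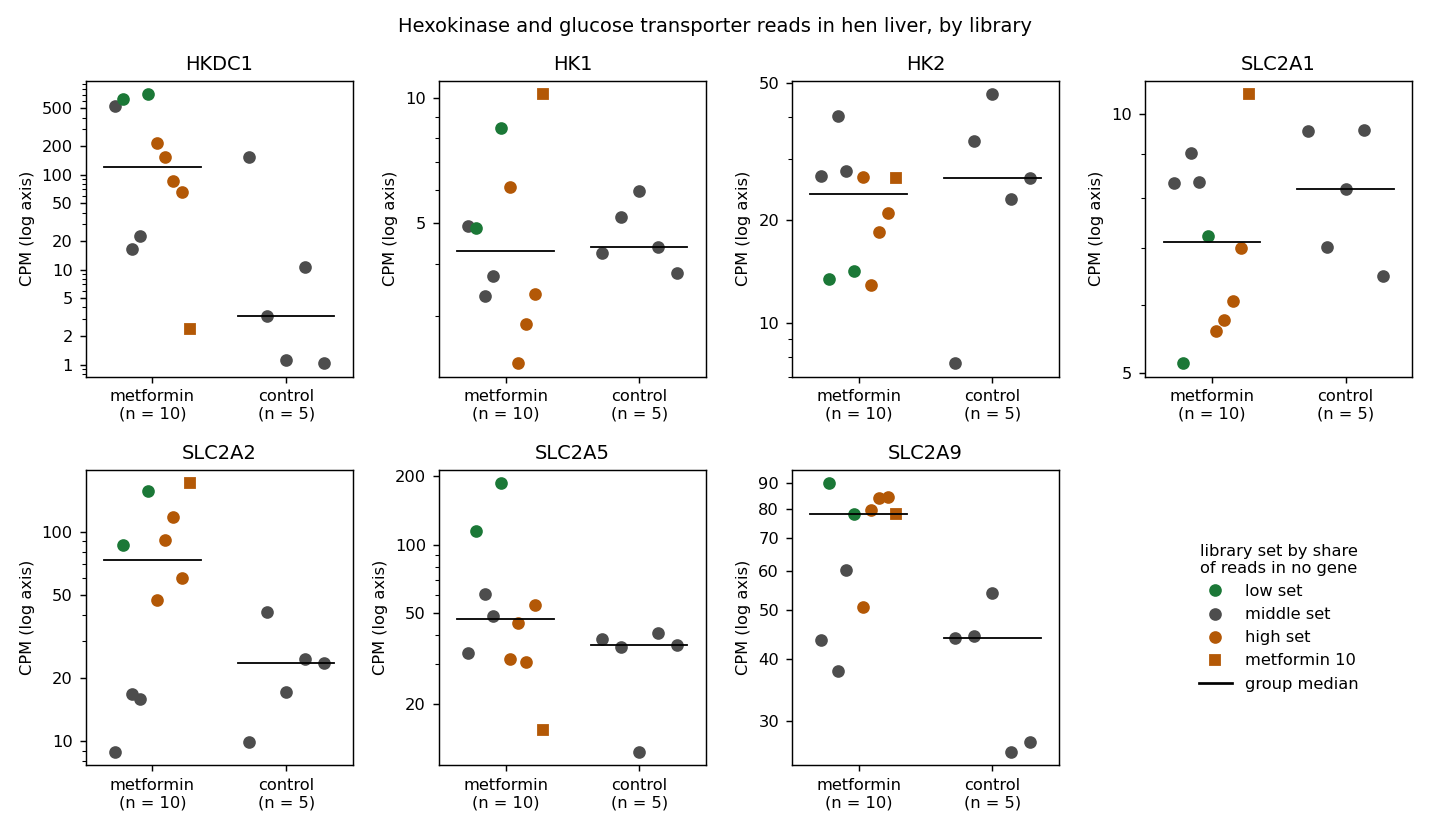
Each point is 1 library, in CPM, read counts scaled by library size (log axis, own scale per gene), with metformin libraries left and control libraries right, colour for the library set, a square for metformin 10 and a line at the group median. The low and high sets lie above every control for SLC2A2, while HKDC1 spreads over more than 2 orders of magnitude within both groups.

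HKDC1 was among the most variable of all tested genes in both groups, and its 5 highest values were all in metformin libraries. It had 525, 16.4 and 22.7 CPM in metformin 1, 3 and 4, 631 and 701 CPM in metformin 2 and 5, and 216, 154, 86.2, 66.1 and 2.38 CPM in metformin 6 to 10. The controls had 152, 3.24, 1.12, 10.8 and 1.03 CPM. The groups overlapped: 5 of 10 metformin libraries lay above every control, 9 of 10 lay above the control median, and control 1 lay above 5 metformin libraries. HKDC1 averaged 242 ± 271 CPM with metformin (SD, n = 10) and 33.7 ± 66.5 CPM in controls (SD, n = 5), with medians of 120 and 3.24 CPM. These levels rest on 26 to 30937 reads per metformin library and 22 to 3923 reads per control library.

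The log2 fold change of HKDC1 was 2.84 ± 1.38 (SE, edgeR adjusted p = 0.137), which did not pass the threshold. Set-adjusted it was 2.48 ± 1.41 (adjusted p = 0.530) and in the middle set alone 2.49 ± 1.52 (adjusted p = 0.615). Leaving out any 1 library other than control 1 kept the all-library value at 2.53 to 3.05. Without control 1, the highest control, it was 5.90 (adjusted p = 0.0415 by edgeR), and set-adjusted 5.53 (adjusted p = 0.0498). Without metformin 1, the highest metformin library of the middle set, the set-adjusted value was -0.79 (adjusted p = 0.933). Over the settings that kept all 15 libraries the adjusted p ran from 0.0121 by limma voom to 0.530 set-adjusted, with DESeq2 at 0.0456.

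HKDC1 spread widely within each group. Its highest library was 294 times its lowest among metformin libraries and 147 times among controls. By the SD of log2(CPM + 0.5) it ranked 152 of 14432 tested genes in metformin libraries, with an SD of 2.58, and 5 in controls, with an SD of 2.75. HK2 ranked 8506 in metformin libraries and 446 in controls, and HK1 ranked 6913 in metformin libraries and 10424 in controls.

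HKDC1 and HK1 are next to each other in chicken gene order, with SUPV3L1, an RNA helicase of mitochondria, and VPS26A, a retromer subunit, on one side and TACR2, a tachykinin receptor, on the other. The genes beside HKDC1 did not share its range. SUPV3L1 had 13.2 to 34.1 CPM in metformin libraries and 13.5 to 21.5 CPM in controls. VPS26A had 14.6 to 37.8 CPM in metformin libraries and 15.4 to 25.6 CPM in controls. HK1 stayed between 2.31 and 10.2 CPM in metformin libraries and between 3.81 and 5.96 CPM in controls, also in the 3 metformin libraries where HKDC1 was above 500 CPM. TACR2 was at 0 CPM in metformin 1 to 5 and in all controls and at 0.922 to 4.68 CPM in metformin 6 to 10, so it followed the high set and not HKDC1.

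**Figure D2:**
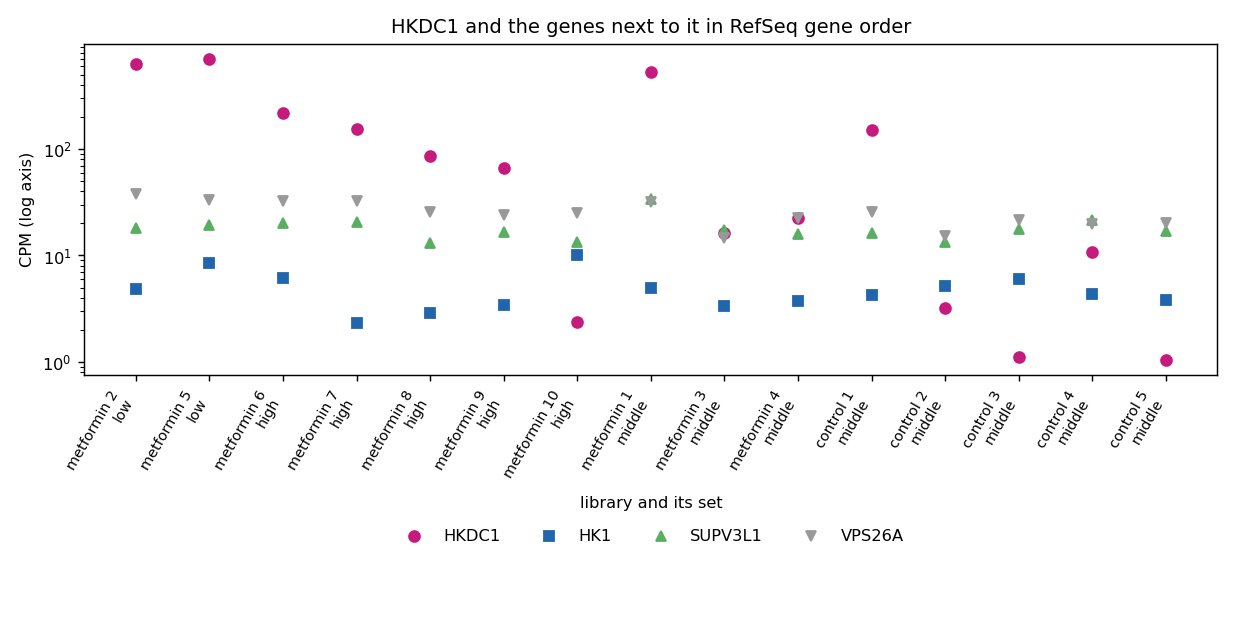
Levels of HKDC1, HK1, SUPV3L1 and VPS26A in CPM (log axis) in each of the 15 libraries, metformin libraries first by set and controls last. HKDC1 runs from 1.03 to 701 CPM while HK1, SUPV3L1 and VPS26A stay between 2.31 and 37.8 CPM.

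HK1, in mammals the hexokinase of red cells, brain and many other tissues, was not called and rests on few reads, 20 to 315 in metformin libraries and 81 to 133 in controls. It had 4.93, 3.35 and 3.72 CPM in metformin 1, 3 and 4, 4.87 and 8.45 CPM in metformin 2 and 5, and 6.11, 2.31, 2.86, 3.39 and 10.2 CPM in metformin 6 to 10. Controls had 4.23, 5.18, 5.96, 4.37 and 3.81 CPM. Metformin libraries lay on both sides of the controls, 3 above and 5 below all of them. The means were 5.02 ± 2.55 CPM with metformin (SD, n = 10) and 4.71 ± 0.855 CPM in controls (SD, n = 5). The log2 fold change was 0.09 ± 0.33 (SE, edgeR adjusted p = 0.849) -0.24 ± 0.41 set-adjusted (adjusted p = 0.886) and -0.21 ± 0.28 in the middle set (adjusted p = 0.841). Its sign also turned without metformin 10 (-0.02) or metformin 5 (-0.00759), the highest libraries, and by limma voom (-0.13).

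HK2, in mammals the hexokinase of muscle, fat and growing cells, was not called, and the metformin libraries lay within the spread of the controls. It had 26.9, 40.2 and 27.8 CPM in metformin 1, 3 and 4, 13.5 and 14.2 CPM in metformin 2 and 5, and 26.7, 12.9, 18.5, 21.0 and 26.5 CPM in metformin 6 to 10. Controls had 7.65, 33.9, 46.4, 23.0 and 26.5 CPM. Both the lowest and the highest of the 15 values were controls. Control 1, lowest for HK2, was the control with the most HKDC1. The log2 fold change was -0.27 ± 0.34 (SE, edgeR adjusted p = 0.564) 0.20 ± 0.38 set-adjusted (adjusted p = 0.894) and 0.23 ± 0.42 in the middle set (adjusted p = 0.894), so its sign turned too.

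Read counts of both genes can be set against each other within a library, where the scaling between libraries drops out. The size of such a ratio depends on gene length, so only its change between libraries is of use. There were 0.0900 to 49.2 HKDC1 reads per HK2 read in metformin libraries, with a median of 6.38, and 0.0241 to 19.9 in controls, with a median of 0.0956. In the middle set the 3 metformin libraries had 0.407 to 19.5, inside the control range. The top of that range was control 1 alone, and the other controls had 0.0241 to 0.468. Metformin 3 (0.407) lay within those, while metformin 1 (19.5) and metformin 4 (0.815) lay above them.

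HK3, a hexokinase of blood leukocytes in mammals and a gene of the wider list, was read beside them. It had 2.77 to 39.0 CPM in metformin libraries and 15.2 to 33.0 CPM in controls. Its log2 fold change was -1.14 (edgeR adjusted p = 0.152) and 0.12 set-adjusted (adjusted p = 0.934). The 7 metformin libraries of the low and high sets lay below every control.

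SLC2A2, the low-affinity carrier of hepatocytes, stood high in the low and high sets and at the level of the controls or under it in the middle set. It had 8.86, 16.7 and 15.8 CPM in metformin 1, 3 and 4, 86.6 and 156 CPM in metformin 2 and 5, and 47.0, 91.1, 117, 60.2 and 171 CPM in metformin 6 to 10. The controls had 9.87, 41.3, 17.2, 24.8 and 23.6 CPM. All 7 libraries of the low and high sets lay above every control, and metformin 1 lay below every control. The means were 77.0 ± 57.9 CPM with metformin (SD, n = 10) and 23.3 ± 11.7 CPM in controls (SD, n = 5).

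Over all 15 libraries the log2 fold change of SLC2A2 was 1.72 ± 0.63 (SE, edgeR adjusted p = 0.0636), just outside the threshold. Set-adjusted it was -0.75 ± 0.44 (adjusted p = 0.546), and -0.74 ± 0.40 in the middle set alone (adjusted p = 0.558), so the sign turned. DESeq2 gave 1.76 (adjusted p = 0.0113) and limma voom 1.73 (adjusted p = 0.00413) over all libraries. With no library left out the adjusted p ran from 0.00413 to 0.580, the latter with the replicate number as a block. That block fit rests on metformin 1 to 5 against the 5 controls, as replicate numbers 6 to 10 have no control. Leaving out metformin 1, 3 or 4, each from the middle set, brought the edgeR call (1.84 to 1.86). The summed hepatocyte markers, of which ALB made 35.5%, moved with the same sets only in part. They had 134113 to 146112 CPM in the low set, above every control, at 92683 to 117908 CPM. The high set, at 98990 to 167679 CPM, overlapped the controls, and metformin 1, 3 and 4 had 54233 to 93363 CPM. Their part in the result was not tested.

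SLC2A1, the widespread basal glucose carrier, had the narrowest range of the 7 genes, its highest library being 2.05 times its lowest among metformin libraries and 1.48 times among controls. It had 8.33, 9.01 and 8.34 CPM in metformin 1, 3 and 4, 5.14 and 7.21 CPM in metformin 2 and 5, and 5.60, 5.77, 6.07, 6.99 and 10.5 CPM in metformin 6 to 10. Controls had 9.56, 7.01, 8.19, 9.59 and 6.49 CPM, so the groups overlapped. The means were 7.30 ± 1.74 CPM with metformin (SD, n = 10) and 8.17 ± 1.42 CPM in controls (SD, n = 5). The log2 fold change was -0.16 ± 0.20 (SE, edgeR adjusted p = 0.566) 0.07 ± 0.25 set-adjusted (adjusted p = 0.957) and 0.09 ± 0.22 in the middle set (adjusted p = 0.925).

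With SLC2A1 as the yardstick, there were 16.9 to 21.6 SLC2A2 reads per SLC2A1 read in the low set and 8.39 to 19.4 in the high set. The ratio was 1.06 to 1.90 in metformin 1, 3 and 4 and 1.03 to 5.88 in controls. These ratios need no scaling between libraries, but they depend on SLC2A1 as well as on SLC2A2. By CPM, SLC2A1 lay below every control in metformin 2, 6, 7 and 8. It was inside the control range in metformin 5 and 9 and above it in metformin 10. SLC2A1 had 50 to 115 reads in the high set. The part of SLC2A1 in the gap between the sets was not tested. Within the middle set all 3 metformin ratios were under the control median of 2.58.

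**Figure D3:**
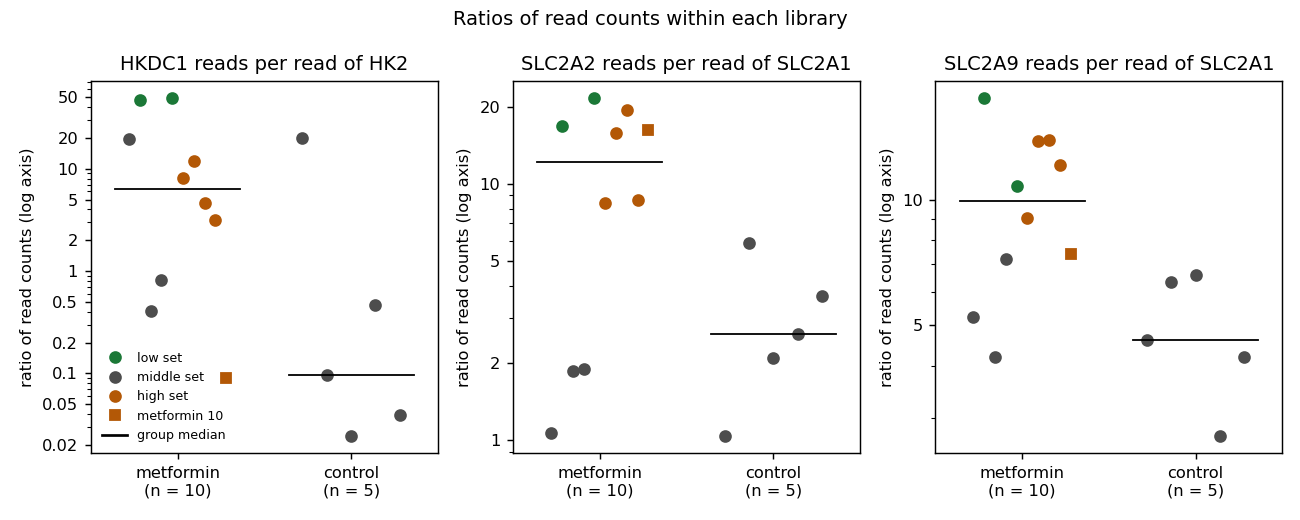
Ratios of read counts within each library (log axis) for HKDC1 over HK2, SLC2A2 over SLC2A1 and SLC2A9 over SLC2A1, metformin left and control right, with colour for the library set, a square for metformin 10 and a line at the group median. SLC2A2 over SLC2A1 is at least 8.39 in the low and high sets and at most 5.88 elsewhere.

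SLC2A9, the urate carrier, rose with metformin over all libraries, a call that was lost once the library sets were taken into account. This carrier has a particular setting in birds, which excrete nitrogen mainly as uric acid made in the liver. It had 43.6, 37.8 and 60.2 CPM in metformin 1, 3 and 4, 90.0 and 78.0 CPM in metformin 2 and 5, and 50.7, 79.7, 84.1, 84.4 and 78.2 CPM in metformin 6 to 10. The controls had 44.0, 44.5, 54.2, 26.0 and 27.3 CPM. Metformin libraries lay above every control in 7 of 10 cases, and metformin 1, 3 and 6 lay inside the control range. The means were 68.7 ± 18.9 CPM with metformin (SD, n = 10) and 39.2 ± 12.2 CPM in controls (SD, n = 5).

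The log2 fold change of SLC2A9 was 0.81 ± 0.25 (SE, edgeR adjusted p = 0.0376). The value was 0.27 ± 0.25 set-adjusted (adjusted p = 0.739) and 0.29 ± 0.27 in the middle set (adjusted p = 0.755). It was also lost without any 1 of the 5 controls or without metformin 7, 8 or 9, in 8 of 15 such fits, with log2 fold changes of 0.69 to 0.95 and adjusted p-values of 0.0128 to 0.0955 over the 15. Without metformin 10 it was 0.84 (adjusted p = 0.0492). DESeq2 and limma voom called it at adjusted p-values of 0.00585 and 0.000637.

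The within-library ratio set the low and high sets further apart from the controls than CPM did. Metformin 6, inside the control range by CPM, had a ratio of 9.05, above every control. The ratio also depends on SLC2A1, which by CPM lay below every control in metformin 6. SLC2A1 had 50 to 115 reads in the high set. There were 4.20 to 17.5 SLC2A9 reads per SLC2A1 read in metformin libraries, with a median of 9.93, and 2.71 to 6.62 in controls, with a median of 4.61. The low set had 10.8 to 17.5 and the high set 7.42 to 13.9, all above the controls, while metformin 1, 3 and 4 had 4.20 to 7.22. A row named SLC2A9L, by its name a near copy, was counted apart with 0 to 8 reads in metformin libraries and 11 to 27 reads in controls, against 554 to 4416 SLC2A9 reads in metformin libraries and 580 to 1211 in controls. Whether reads could go to either row was not tested, so the exact level of SLC2A9 is uncertain to that extent.

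SLC2A5, the fructose carrier, was high in the 2 libraries of the low set. It had 33.4, 60.9 and 48.6 CPM in metformin 1, 3 and 4, 114 and 186 CPM in metformin 2 and 5, and 31.6, 45.4, 30.6, 54.5 and 15.4 CPM in metformin 6 to 10. The controls had 38.7, 35.5, 12.4, 41.1 and 36.5 CPM. Metformin libraries lay above every control in 6 of 10 cases, and control 3 stood alone below the other controls. The means were 62.1 ± 51.1 CPM with metformin (SD, n = 10) and 32.8 ± 11.7 CPM in controls (SD, n = 5). The log2 fold change was 0.92 ± 0.49 (SE, edgeR adjusted p = 0.172), 0.54 ± 0.37 set-adjusted (adjusted p = 0.632) and 0.55 ± 0.34 in the middle set (adjusted p = 0.616). It was 0.30 without the low set (adjusted p = 0.533), 1.51 without the high set (adjusted p = 0.208) and 0.60 without metformin 5 alone (adjusted p = 0.298). SLC2A5 was called in 0 of these fits.

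SLC2A5 and SLC2A2 shared a high level in the low set and parted in the high set. There were 0.0902 to 0.905 SLC2A5 reads per SLC2A2 read in the high set and 1.19 to 1.32 in the low set. The ratio was 3.07 to 3.77 in metformin 1, 3 and 4 and 0.721 to 3.93 in controls. Metformin 10 was at an end of the metformin range for 5 of the 7 genes, highest for HK1, SLC2A1 and SLC2A2 and lowest for HKDC1 and SLC2A5. Without it the log2 fold changes of these 5 genes were -0.02, -0.19, 1.57, 3.05 and 1.10 in that order, and 0 of them were called.

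**Figure D4:**
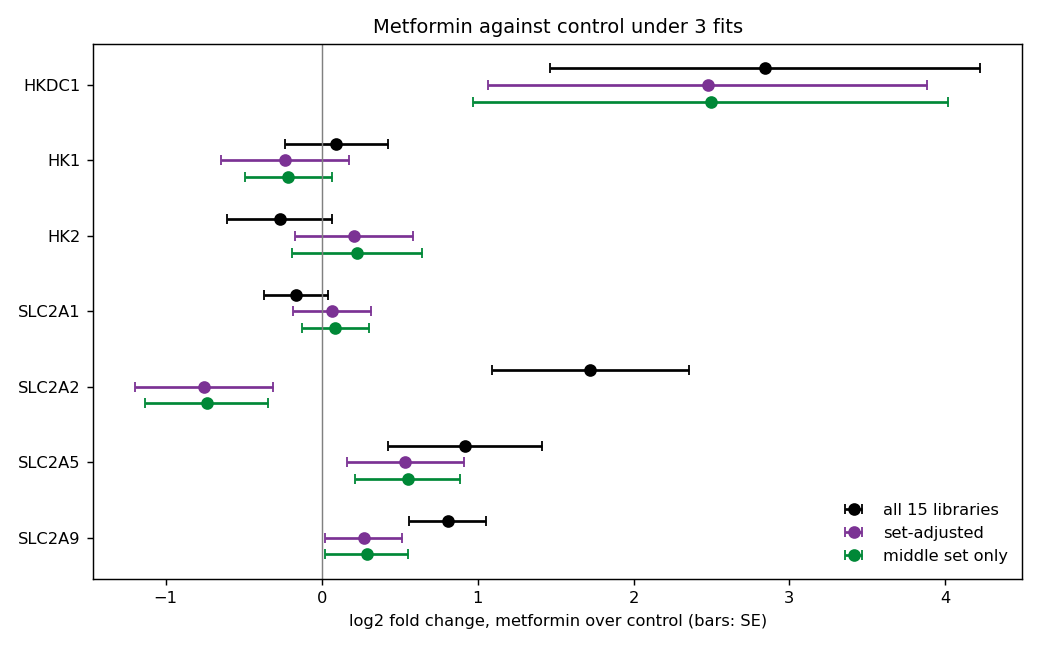
Log2 fold changes, metformin over control, with bars of 1 SE for the 7 genes in the fit of all 15 libraries, the set-adjusted fit and the fit of the middle set. SLC2A2 lies at 1.72 in the first fit and at -0.75 and -0.74 in the others, and the SLC2A9 value drops to 0.27 and 0.29. The set-adjusted and middle-set values rest on the same contrast within the middle set.

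The rest of the 2 families gave no call by edgeR. Of 15 further SLC2A and hexokinase genes listed, 11 were in the table and 10 were tested, and 0 rose or fell by edgeR, with a median log2 fold change of -0.30 (-0.10 set-adjusted). At an unadjusted p under 0.05 there were 2 higher and 2 lower, while DESeq2 called 2 higher and 0 lower and limma voom 2 higher and 3 lower. Each is close to the share given above for all tested genes by the same rule. SLC2A13, the proton-linked inositol carrier, had the smallest p of them. It had 11.7 to 52.4 CPM in metformin libraries, above every control in 8 of 10, and 14.2 to 16.6 CPM in controls. Its log2 fold change was 0.88 (edgeR adjusted p = 0.0550) and -0.06 set-adjusted (adjusted p = 0.952).

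Genes by which fructose and galactose enter metabolism were lower where edgeR called them. Of 11 tested, 3 fell and 0 rose, beside 12.5% of all tested genes higher and 5.73% lower. The median log2 fold change was -0.73, and set-adjusted 0 were called with a median of -0.02. DESeq2 called 0 higher and 3 lower, beside 21.0% and 8.68% of all tested genes. With limma voom 1 was higher and 7 lower, beside 23.0% and 27.7%. The counts of this list and of those below were not tested against such shares. GALM, which interconverts the alpha and beta forms of galactose and glucose, had 51.5 to 116 CPM in metformin libraries and 77.2 to 143 CPM in controls. It fell by 0.67 on the log2 scale (edgeR adjusted p = 0.0331), with -0.42 set-adjusted (adjusted p = 0.520).

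Genes of the next steps of glucose 6-phosphate moved in both directions. Of 22 tested, 2 rose and 2 fell, beside 12.5% of all tested genes higher and 5.73% lower. The list median was 0.05 (-0.02 set-adjusted, with 0 called). G6PC, which undoes the hexokinase step, fell by 2.16 (edgeR adjusted p = 0.0113), and PGLS, of the pentose phosphate pathway, fell by 0.90 (adjusted p = 0.0373), both on the log2 scale, with -1.44 and -0.33 set-adjusted in that order. PGM2, a phosphopentose and phosphoglucomutase, rose by 0.75 on that scale (adjusted p = 0.0341), with 0.46 set-adjusted. The other gene that rose, PFKFB3, which makes the activator of phosphofructokinase, was named after its value was seen and had 1.46 (adjusted p = 0.0424) and 1.42 set-adjusted (adjusted p = 0.157). Of the 22 genes DESeq2 called 6 higher and 3 lower, beside 21.0% and 8.68% of all tested genes. With limma voom 6 were higher and 6 lower, beside 23.0% and 27.7%.

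Among 18 tested regulators of hepatic carbohydrate genes, 2 rose and 1 fell, beside 12.5% of all tested genes higher and 5.73% lower. The list median was 0.20 (-0.12 set-adjusted, with 0 called). TXNIP, a glucose-induced arrestin that curbs glucose uptake, had 144 to 325 CPM in metformin libraries and 350 to 516 CPM in controls. The groups did not overlap, as for 1.05% of tested genes with every metformin library below every control. TXNIP was named for its small p in these same libraries, so the gap is no separate support. Its log2 fold change was -0.83 (edgeR adjusted p = 0.0251) and -0.56 set-adjusted (adjusted p = 0.390). ONECUT1, a liver transcription factor, had 0.819 to 15.8 CPM in metformin libraries and 0.841 to 1.41 CPM in controls, and rose by 2.80 on the log2 scale (adjusted p = 0.0241), with 0.31 set-adjusted. HIF1A, the oxygen-sensitive transcription factor, rose by 1.45 on the log2 scale (adjusted p = 0.0343), with -0.15 set-adjusted. Of the 18 regulators DESeq2 called 4 higher and 1 lower, beside 21.0% and 8.68% of all tested genes. With limma voom 5 were higher and 4 lower, beside 23.0% and 27.7%.

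The 17 tested glycolytic and other genes that hypoxia induces in mammals had a median of 0.07 (-0.19 set-adjusted, with 0 called). Beside 12.5% of all tested genes higher and 5.73% lower, 4 of the 17 rose and 0 fell. They were VEGFA, an endothelial growth factor (1.96, edgeR adjusted p = 0.0307), PGK1, a glycolytic kinase (1.94, adjusted p = 0.0317), EGLN1, an oxygen-sensing hydroxylase (1.05, adjusted p = 0.0300), and PDK1, which inhibits pyruvate dehydrogenase (2.05, adjusted p = 0.0371, named after its value was seen). Set-adjusted these had -0.08, -0.17, 0.39 and -0.41 in that order. In the set-adjusted edgeR fit 0 of the 17 were higher and 4 lower at an unadjusted p under 0.05, beside 1678 of 14432 tested genes. DESeq2 called 6 of the 17 higher and 0 lower, beside 21.0% and 8.68% of all tested genes. With limma voom 6 were higher and 1 lower, beside 23.0% and 27.7%.

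Of 9 tested genes of urate formation and transport, 2 rose and 0 fell, beside 12.5% of all tested genes higher and 5.73% lower. The list median was 0.85, and set-adjusted 0 were called with a median of -0.76. PPAT, the entry enzyme of purine synthesis, had 241 to 590 CPM in metformin libraries, above every control in 8 of 10, and 124 to 353 CPM in controls. Its log2 fold change was 0.85 (edgeR adjusted p = 0.0418) and 0.32 set-adjusted (adjusted p = 0.728). SLC22A13, an organic anion carrier, was called at 2.85 (adjusted p = 0.0460) from 0 to 3.57 CPM in metformin libraries and 0.0470 to 0.493 CPM in controls, with -0.14 set-adjusted. XDH, which makes uric acid, had 234 to 590 CPM in metformin libraries and 171 to 1012 CPM in controls and was not called (-0.53, adjusted p = 0.200). Of 12 tested sugar carriers of other families, SLC45A4 rose (1.51, adjusted p = 0.0275, and 0.33 set-adjusted) and 0 fell, with a median of -0.30 (-0.08 set-adjusted). DESeq2 called 3 of the 9 urate genes and 2 of these 12 higher and 0 of either lower, beside 21.0% and 8.68% of all tested genes. With limma voom 4 of the 9 were higher and 0 lower, and 2 of the 12 higher and 4 lower, beside 23.0% and 27.7%. In the middle set 0 genes of these 7 further lists were called.

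**Figure D5:**
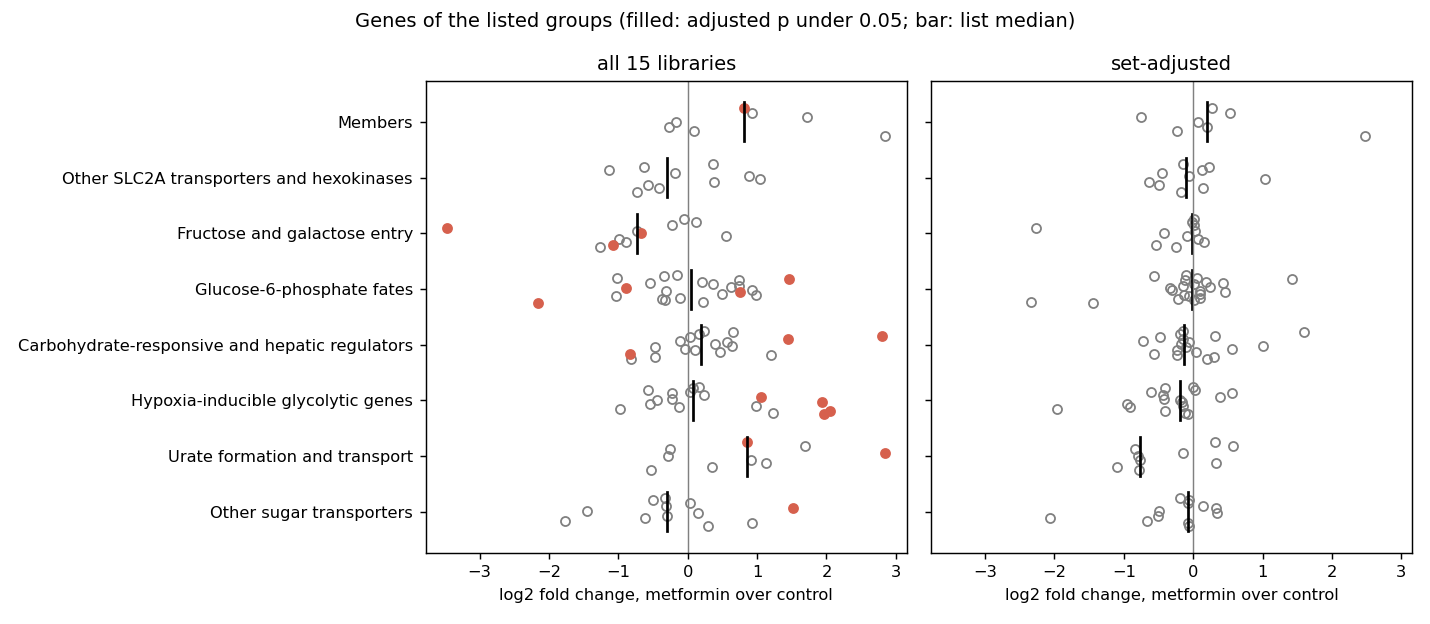
Log2 fold changes, metformin over control, of the tested genes in each list over all 15 libraries (left) and set-adjusted (right), filled where the adjusted p was under 0.05, with a bar at the list median. Filled points are on the left panel only, 1 of them among the 7 hexokinases and glucose carriers.

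Markers of other cell types were read for the same libraries. The 13 bile duct markers summed to 406 to 523 CPM in the low set, 544 to 875 CPM in the high set, 1569 to 2402 CPM in metformin 1, 3 and 4, and 1670 to 2219 CPM in controls. KRT18 made 58.5% of that sum, KRT8 17.7%, CDH1 17.5% and EPCAM 3.42%. Hepatocytes share these markers in part, so the sum does not measure bile duct content alone. Erythrocyte markers, 12 of 18 listed in the table, summed to 175 to 685 CPM in metformin libraries and 299 to 1375 CPM in controls. Macrophage markers, 13 of 15 in the table, summed to 733 to 1294 CPM in metformin libraries and 938 to 1828 CPM in controls. Heterophil and thrombocyte markers, 8 of 15 found under the spelling listed, summed to 13.4 to 71.7 CPM in metformin libraries and 47.8 to 106 CPM in controls. MPO was under 1 CPM throughout, and ITGA2B made 46.8% of the sum. The defensins AvBD1, AvBD6 and AvBD7 have rows under another spelling and are missing from that sum. Set-adjusted their log2 fold changes were -3.24, -2.58 and -3.28 (edgeR adjusted p = 0.352, 0.187 and 0.302). Endothelial markers summed to 272 to 561 CPM in metformin libraries and 438 to 521 CPM in controls, stellate cell and fibroblast markers to 245 to 884 CPM in metformin libraries and 259 to 601 CPM in controls, and lymphocyte markers to 77.6 to 143 CPM in metformin libraries and 99.2 to 156 CPM in controls. Their part in the results above was not tested.

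As a description of likeness, the genes with the most similar pattern were sought by Pearson's r of log2 CPM over the 8 libraries of the middle set, among 12929 genes with an average log2 CPM of at least 0. These r-values are across few libraries that share sequencing depth and composition. HKDC1 was most like LOC112532077 (0.98), SRSF2 (0.97), a splicing factor, and RFLNA (0.97), a filamin-binding protein. HK1 was most like PPIP5K2 (0.98), BTBD6 (0.96) and LARP4 (0.94), and HK2 most like FECH (0.96), the last enzyme of haem synthesis, LOC416924 (0.95) and PTPRF (0.95). SLC2A1 was most like PURG (0.97), OLFM1 (0.95) and MAP1A (0.93). SLC2A2 was most like LOC107056877 (0.94), LOC100859726 (0.94) and LOC107055025 (0.93). SLC2A5 was most like ABCC2 (0.95), a bile canalicular export pump, ZNF746 (0.93) and ADGRA3L (0.92), and SLC2A9 most like ZCCHC8 (0.97), IL15 (0.92) and IDO2 (0.92). The 3 likest genes of HKDC1 had log2 fold changes of 3.75, 0.26 and 2.78 over all libraries (edgeR adjusted p = 0.0262, 0.149 and 0.0316). Set-adjusted they had 1.25, 0.19 and 1.53 (adjusted p = 0.362, 0.692 and 0.479). Among the likest genes of other members LARP4 (2.02, edgeR adjusted p = 0.0282) and PTPRF (2.23, adjusted p = 0.0293) were called too. All were chosen over 8 of the same libraries, so these values follow in part from the choice.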

How the data were processed

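Per the labels' protocols, libraries were prepared with a stranded mRNA kit. The authors deposited raw read counts per gene. FastQC 0.12.0, Trim Galore 0.6.4, STAR 2.7.11b, HTSeq 0.12.3 and the genome build GRCg6a (galGal6) stand in the submitters' processing notes. Whether counting used the strand is not stated in these sources, so reads of antisense partners may be mixed. The 5 closing rows (reads in no gene, not unique or in several genes) stayed out of library sizes and tests. The share in no gene has a Wilson 95% half-width of at most 0.0219 percentage points, for counting error only. A date stood in place of 21 gene names and 1 name occurred more than once. Symbols were matched to a RefSeq table of GRCg7b for gene order and to mark ribosomal RNA genes (18461 of 24154 rows, 7 of 7 measured members). No pair of libraries of the same treatment agreed within sampling noise (smallest chi-square per degree of freedom 90.6 over 2000 genes). Pairs across the treatments were not compared.

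The treatment comparison used edgeR 4.0.16 under R 4.3.3 (quasi-likelihood test, TMM factors, default filter, Benjamini-Hochberg adjustment over all tested genes, threshold 0.05). CPM values use TMM-scaled library sizes, and log2 spreads use CPM + 0.5. Alternatives were RLE and upper quartile factors, DESeq2 1.42.0, limma 3.58.1 voom with quality weights, no filter, CPM at least 1 in at least 5 libraries, ribosomal RNA genes left out, the replicate number as a block, the library set as covariate, the middle set alone and each library left out. Scripts were tested on simulated counts. Members, lists and tests were chosen with earlier results of these data known. From each list up to 3 called genes of smallest p were named, or the 1 of smallest p, and for each member the 3 most alike genes. A few genes of the lists are counted but not reported here by name. No pairing of the libraries by replicate number was seen: correlations of deviations were -0.077 to 0.064 over 5 numbers. Metformin deviations also hold the differences between library sets, so these correlations cannot settle whether the numbers paired the libraries.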

Additional observations from a re-analysis of the deposited data

Results flagged for a closer look

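Control 3 had the lowest SLC2A5 level of the controls, 12.4 CPM, against 35.5 to 41.1 CPM in the other 4 controls. On the log2 scale its gap to the nearest control was a larger part of the control range than Dixon's 95% critical value allows for 5 samples. It was 1 of 14 groups examined (7 genes in metformin and in control libraries), and chance marks about 1 group in 20. Without control 3 the log2 fold change of SLC2A5 was 0.71 (edgeR adjusted p = 0.327), not past the threshold.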

How the results depend on the processing

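Of 189 values of the member log2 fold changes under other settings, 155 kept direction and call. Of the rest 13 lost the call, all of SLC2A9, 8 gained a call and 13 reversed. Of 105 set-adjusted values 100 kept both, 4 reversed and 1 gained a call. The cause of these shifts was not tested. Leaving out a low-set or high-set library can hardly move a set-adjusted value, because those sets hold no control. For SLC2A9 such fits gave 0.288 to 0.291, so their agreement says nothing of stability. Genes called higher over all libraries (1805) became 3034 with DESeq2, 3323 with limma voom, 4 set-adjusted and 0 in the middle set. They became 0 without the high set and 1454 without the low set. Genes called lower (827) became 1253, 4001, 1, 1, 0 and 366 in that order. With the replicate block 0 genes were called in either direction and SLC2A9 had 0.65, with no other member's call changed. Replicate numbers 6 to 10 exist for metformin only, so that fit compares metformin 1 to 5 with the 5 controls. The high set, metformin 6 to 10, has no part in its contrast. Under the block HKDC1 had 4.43 and SLC2A2 0.55, neither called. No pairing by replicate number was seen. Leaving out 1 library gave 0 to 3011 genes higher and 0 to 2293 lower, with none called without control 5. Members called higher (1) were 3 with DESeq2 and 3 with voom, and 0 set-adjusted, in the middle set, with the block and without the low or the high set (both left-out sets were chosen after seeing the data), and 0 to 2 without 1 library. HKDC1 had 2.89 with DESeq2, 4.17 with voom and 2.53 to 5.90 without 1 library, set-adjusted -0.79 to 5.53. HK1 had -0.13 with voom, -0.24 set-adjusted, -0.21 in the middle set, -0.0197 without the low set and -0.0171 to 0.21 without 1 library. SLC2A5 had 0.38 with voom, 1.29 with the block and 0.60 to 1.10 without 1 library. HK2 had 0.20 set-adjusted, 0.23 in the middle set and -0.51 to 0.00103 without 1 library (set-adjusted -0.0394 to 0.47). SLC2A1 had 0.0666 set-adjusted and 0.0864 in the middle set, and set-adjusted -0.00726 to 0.13 without 1 library. SLC2A2 had 1.76 with DESeq2, 1.73 with voom, -0.75 set-adjusted, -0.74 in the middle set and 1.52 to 2.03 without 1 library. SLC2A9 had 0.27 set-adjusted, 0.29 in the middle set, 0.74 without the low set, 0.73 without the high set and 0.69 to 0.95 without 1 library. The median of all genes was 0.12 without a filter and -0.07 with the block, against 0.03. GCKR settings were not run. Depth limits HK1 and SLC2A1 in the high set, where single libraries held as few as 20 and 50 reads of them.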
